A study of Arabidopsis thaliana with 2 samples.

Results

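The auxin response and conjugation genes described here are 11 genes of Arabidopsis thaliana, 7 of the IAA family and 4 of the GH3 family, measured in hypocotyls. They were chosen by name: a probe set assigned to 1 gene whose symbol is SAUR, IAA, ARF or PIN followed by a number, or GH3 followed by a point and a number. They are 11 of 13513 plant probe sets with 1 named gene. No probe set assigned to 1 gene carried a SAUR, ARF or PIN symbol, so the SAUR growth genes, the ARF transcription factors and the PIN auxin exporters are not analysed here. Probe sets with several genes were not searched for these symbols. The RefSeq gene table holds 24 genes with an IAA symbol and 5 with a GH3 symbol. This leaves 17 IAA genes and 1 GH3 gene without a probe set assigned to them alone. All 11 members have plain probe set names, without the suffixes that mark probes shared between transcripts.

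The study profiled 2 hypocotyl samples from Col plants at growth stage 6.0, each on its own Affymetrix ATH1 array, and its title names secondary cell wall development under short days as its subject. Per the labels, the plants grew at 22 °C on compost and vermiculite under 8 h light and 16 h dark, and all were given Intercept with the first watering. Both samples carry the same genotype, tissue, stage and treatment, so they form 1 group without a contrast, and no test was possible. They are called sample 1 and sample 2, and the labels leave unsaid whether different plants were harvested for each. If they were not, the spread between the samples is technical.

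Auxin acts by bringing the Aux/IAA proteins, which the IAA genes encode, to the TIR1 and AFB receptors. The Aux/IAA proteins are then degraded, and the ARF transcription factors that they hold back are released. The GH3 genes encode enzymes that join auxin or other compounds to amino acids, and for auxin this stores or inactivates the hormone. Many IAA and GH3 genes are themselves switched on by auxin, which limits the response. In hypocotyls auxin is known for driving elongation in seedlings and for maintaining the cambium during later thickening.

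IAA18, GH3.9 and GH3.17 were well above all bacterial controls on both arrays, while the other 6 measured IAA genes, and GH3.1 and GH3.3, each had at least 1 control as bright or brighter on at least 1 array. The background was taken from 27 control probe sets on each array that target Bacillus transcripts. Their signals ran from 0.30 to 13.1 in sample 1, with a median of 1.2, and from 0.20 to 12.6 in sample 2, with a median of 2.1. The highest control on each array, 13.1 and 12.6, served as the detection limit. Of the 11 members, 3 exceeded it on both arrays, 1 exceeded it in sample 2 alone and 7 exceeded it on neither. The count rests on the brightest controls: with the TrpnX control probe sets alone as the limit, 2.5 and 3.3, 8 members passed on both arrays, 6 of them IAA genes, as did 85.2% of all plant probe sets. At the main limit, the highest of all 27 controls, 70.0% of all plant probe sets and 65.9% of those with 1 named gene passed on both arrays. Of the latter, 28.8% passed it on neither. The members' share above the main limit on both arrays, 27.3%, was lower than the 70.0% and 65.9%, and this was not tested. That share rests on 11 genes and leaves out 17 of the 24 IAA genes, so it is no result about the families. A signal below the limit does not show that a transcript is absent, since equal amounts of 2 transcripts can give unequal signals on their probe sets.

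**Figure D1:**
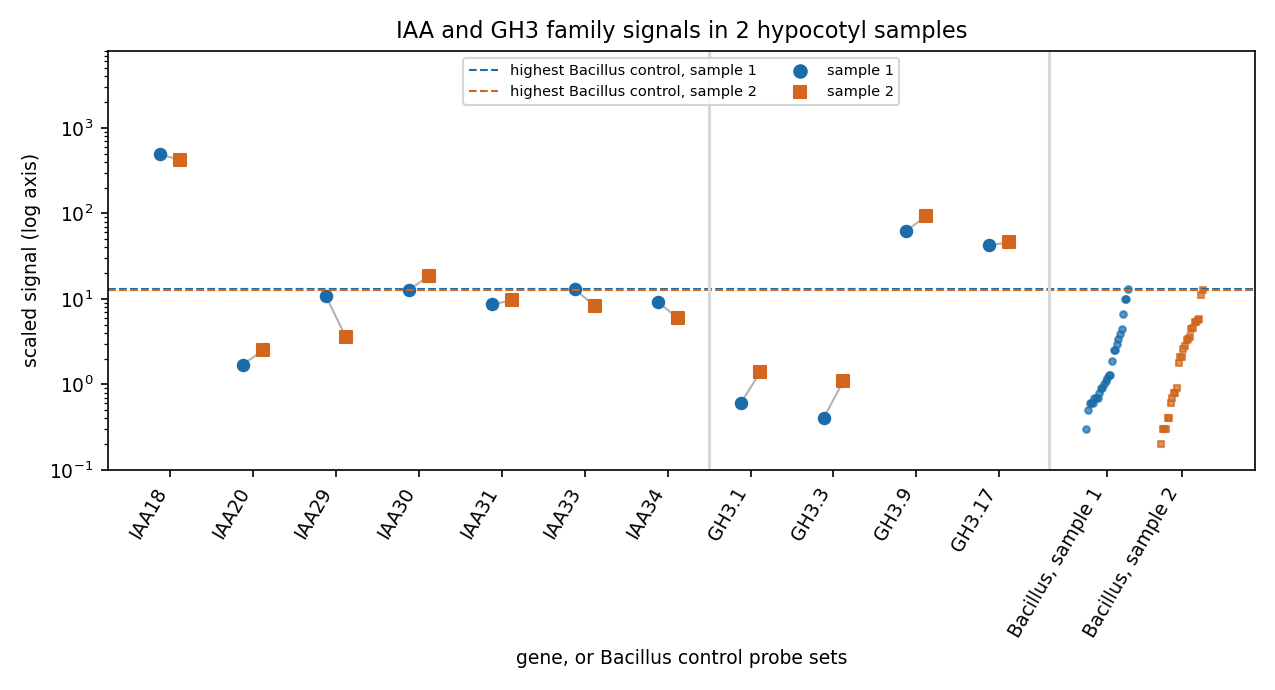
Scaled signal (log axis) of each IAA and GH3 member in sample 1 (circles) and sample 2 (squares), with all 27 Bacillus control probe sets of each array at the right and the highest control as a dashed line. IAA18, GH3.9 and GH3.17 lie above both lines, IAA30 crosses the line of its array in sample 2, and the other 7 members lie below.

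Among the IAA genes, IAA18 was the one detected in both samples. IAA18 encodes an Aux/IAA repressor with the usual degron, the short stretch that the receptors recognise, and is known from dominant mutations that disturb embryo patterning and lateral root formation. Its signal was 490.7 in sample 1 and 424 in sample 2, a mean of 457 ± 47.2 (SD, n = 2). These values were 37.5 and 33.7 times the limits, far above every control on both arrays. The log2 ratio of sample 2 over sample 1 was -0.21. Over the 2466 plant probe sets with mean signals from 200 to 500 and both signals above the limits, the SD of this ratio was 0.20, so the samples differed at IAA18 by about the usual amount for its brightness.

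IAA29 encodes the other measured Aux/IAA protein with the usual degron, and in seedlings it is known for induction by shade through PIF transcription factors. Sample 1 gave 10.8 and sample 2 gave 3.6, below the limit on both arrays. In sample 1 it was brighter than 26 of the 27 controls and in sample 2 than 18 of them. The 2 arrays therefore placed IAA29 at different points within the range of the controls, and no ratio is given for it or for any other member under the limit.

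The other 5 measured IAA genes encode Aux/IAA proteins that lack the usual degron or carry an altered one, and none exceeded the limit on both arrays. IAA20 and IAA30 have been linked to vascular development, where they act downstream of an ARF. IAA30 had 12.6 in sample 1, just under that array's limit, and 18.7 in sample 2, above every control there. IAA20 had 1.7 and 2.5, brighter than 16 controls in sample 1 and 14 in sample 2, which puts it near the middle of the controls on both arrays. IAA30 thus stood at the edge of detection, and IAA20 could not be distinguished from the bacterial probe sets.

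IAA33, IAA34 and IAA31 stood near the top of the control range without passing it. IAA33, known from work on the root stem cell niche, had 12.9 in sample 1 and 8.3 in sample 2. IAA34, which acts in the apical hook of seedlings through a cell surface kinase, had 9.3 and 6.0. IAA31, which disturbs growth when overexpressed, had 8.6 and 9.6. In sample 1 these 3 genes were brighter than 26, 24 and 24 of the 27 controls, and in sample 2 each was brighter than 25. The controls above them were few, so how these genes are called rests on a few bacterial probe sets.

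**Figure D2:**
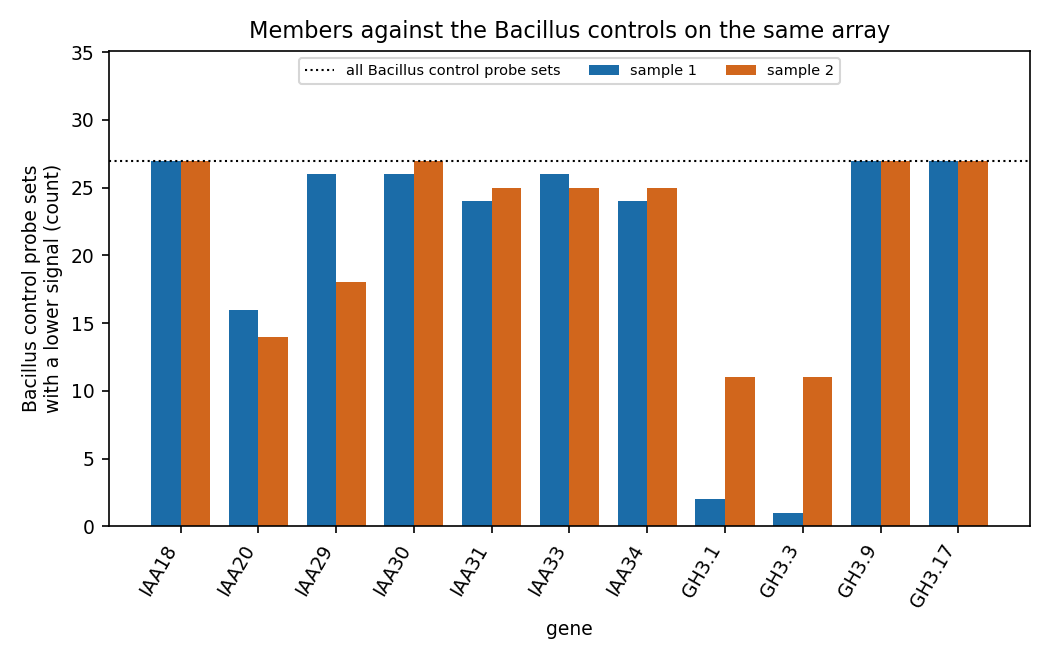
Number of Bacillus control probe sets, of 27 on each array (dotted line), with a signal lower than that of each member, for sample 1 and sample 2. IAA18, GH3.9 and GH3.17 exceed all 27 on both arrays, whereas GH3.3 exceeds 1 in sample 1 and 11 in sample 2.

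The GH3 genes split into 2 that were detected in both samples and 2 that lay within the range of the controls. GH3.17 and GH3.9 were the detected ones. GH3.17 joins auxin to glutamate and is known for limiting hypocotyl elongation in seedlings. Its signal was 42.4 in sample 1 and 46.1 in sample 2, a mean of 44.2 ± 2.62 (SD, n = 2), at 3.24 and 3.66 times the limits. Its log2 ratio of 0.12 lay inside the SD of 0.33 found over 4021 probe sets with mean signals from 20 to 50.

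GH3.9, best known for its effect on primary root growth, had the log2 ratio farthest from 0 among the 3 detected members. Its signal was 63.0 in sample 1 and 93.0 in sample 2, a mean of 78.0 ± 21.2 (SD, n = 2), at 4.81 and 7.38 times the limits. It was thus higher in sample 2 by 1.48-fold, a log2 ratio of 0.56. Over 3697 plant probe sets with mean signals from 50 to 100 this ratio had an SD of 0.25. The 5th percentile was -0.36 and the 95th 0.40, so GH3.9 lay outside that range. By definition, 5% of these probe sets lie beyond each end of it. The difference at GH3.9 is between samples with identical labels, and it has no replicate check. The median log2 ratio of the 2 detected GH3 genes was 0.34, beside 0.00 over all plant probe sets above the limits. It rests on 2 genes, and with WES1 (GH3.5) counted too it was 0.12. None of the 3 members above the limits on both arrays differed by 2-fold or more in either direction, and 0.320% of the 15919 plant probe sets above the limits were higher by that much in sample 2 and 0.144% in sample 1. With so few probe sets past that fold, a count of 0 among 3 members is no result about the families.

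**Figure D3:**
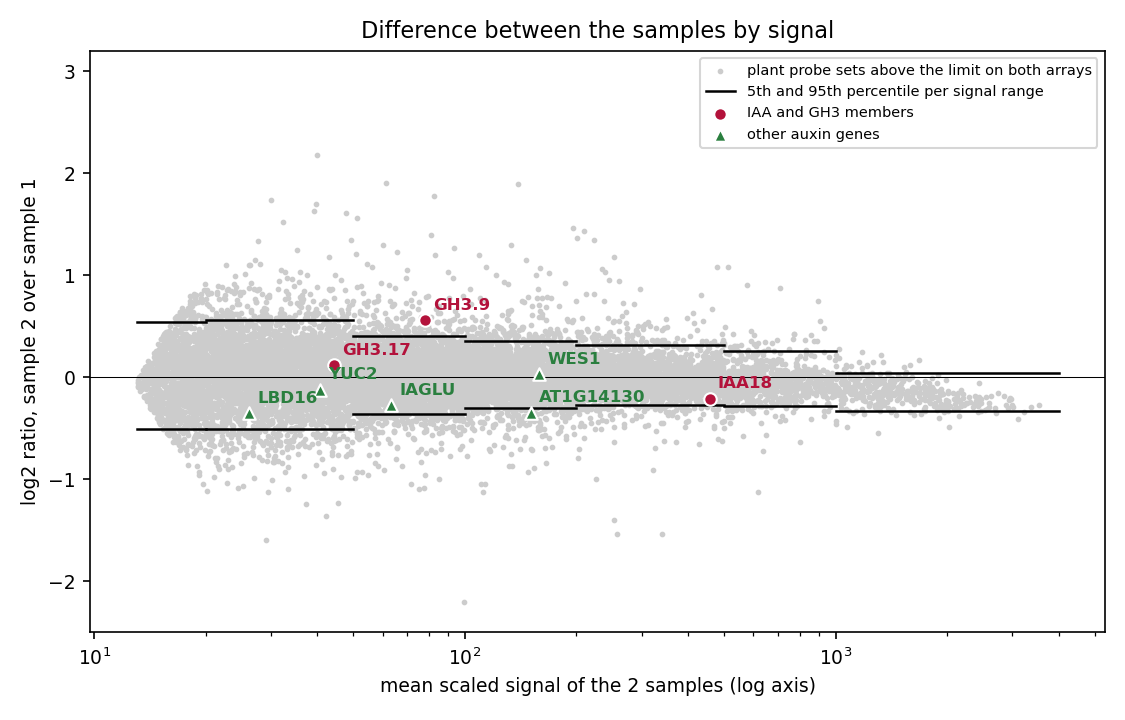
Log2 ratio of sample 2 over sample 1 against the mean scaled signal (log axis) for the 15919 plant probe sets that exceeded both arrays' limits (grey), with IAA and GH3 members as circles, other auxin genes as triangles and black lines at the 5th and 95th percentile in each range of signal. GH3.9, at a log2 ratio of 0.56, lies above the line at 0.40, while IAA18 and GH3.17 lie between the lines.

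GH3.1 and GH3.3 encode auxin-conjugating enzymes whose transcripts rise strongly when auxin is supplied, and GH3.3 also acts in adventitious rooting from the hypocotyl. GH3.1 had 0.60 in sample 1 and 1.4 in sample 2. GH3.3 had 0.40 and 1.1. On the array of sample 1, 25 controls were as bright as GH3.1 or brighter and 26 as bright as GH3.3 or brighter, and on that of sample 2 the count was 16 for each. Both genes were therefore dimmer than the median control on both arrays, and neither was detectable in hypocotyls at these signals.

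WES1 is also known as GH3.5, per the synonyms in the RefSeq gene table, but its symbol leaves it outside the families as defined, and it was looked up after its values were known. It encodes an enzyme that conjugates auxin and salicylic acid. Its signal was 156.8 in sample 1 and 160.4 in sample 2, a mean of 159 ± 2.55 (SD, n = 2) and a log2 ratio of 0.03. IAGLU, which encodes an enzyme that joins auxin to glucose, was looked up in the same way and had 69.2 and 57.2, a log2 ratio of -0.27. Both were above the limits on both arrays, which was known when they were looked up.

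Other genes of the auxin pathway came from a list of 34 loci that act in auxin synthesis, perception, transport, release or oxidation, and response. Of these, 6 had a probe set assigned to 1 gene, and 3 of the 6 were above the limit on both arrays. The share among all plant probe sets with 1 named gene was 65.9%, and so small a count is no result about the pathway. None of the 9 perception genes and none of the 8 transport genes had such a probe set, so receptors and carriers are not analysed here. Of the 10 synthesis genes, 3 were measured, all of which encode YUC flavin monooxygenases that catalyse the last step of auxin synthesis. YUC2 had 42.4 in sample 1 and 39.0 in sample 2, above the limits. YUC4 had 7.4 and 7.6, below them on both arrays. YUC6 had 12.8 and 3.4, also below, with the first value close to the limit of 13.1. One of the 3 YUC genes was thus detected in both samples.

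Of the response targets, LBD16 and LBD29 encode transcription factors that ARFs switch on when lateral roots form. LBD16 had 29.4 in sample 1 and 23.0 in sample 2, at a log2 ratio of -0.35. LBD29 had 5.9 and 5.5, below the limit on both arrays. LBD16 was thus detected in both samples and LBD29 in neither. AT1G14130, listed under release and oxidation and without a name in the gene table, had 168.7 and 132.8, a log2 ratio of -0.35. Over 3269 probe sets with mean signals from 100 to 200 the 5th percentile of the ratio was -0.30. This locus lay just below it, where 5% of those probe sets lie by definition.

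**Figure D4:**
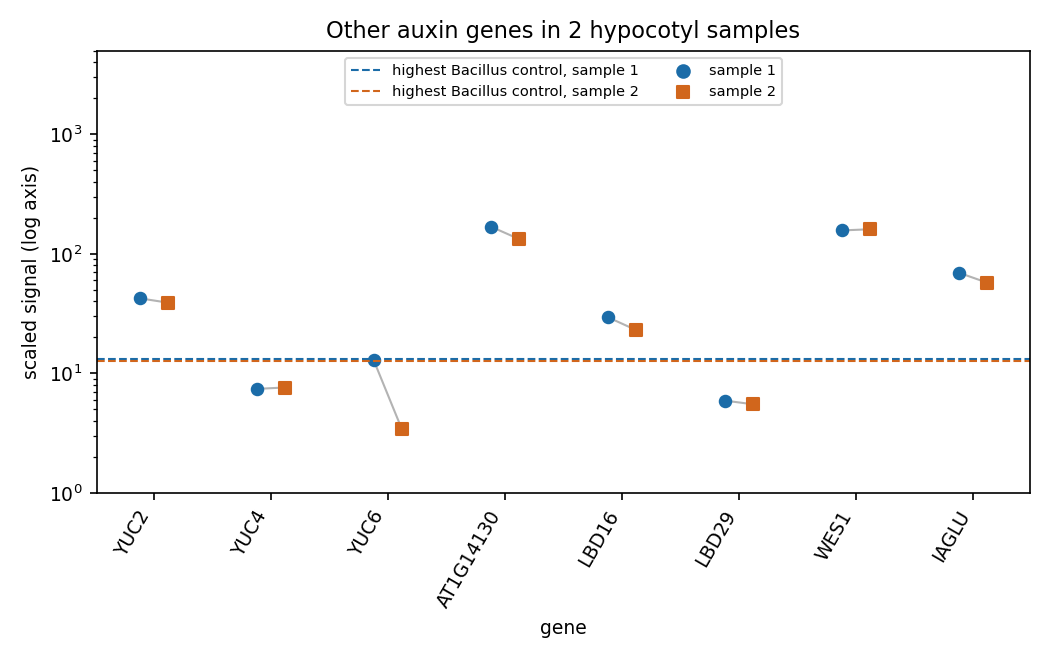
Scaled signal (log axis) of 8 other auxin genes in sample 1 (circles) and sample 2 (squares), with the highest Bacillus control of each array as a dashed line. YUC2, AT1G14130, LBD16, WES1 and IAGLU lie above the lines in both samples, and YUC4, YUC6 and LBD29 lie below them. WES1 and IAGLU were looked up after their values were known.

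For the labelled tissue, 30 marker loci were looked up, of which 11 had a probe set assigned to 1 gene. Of the 11, 10 exceeded the limit on both arrays, beside 65.9% of plant probe sets with 1 named gene. Genes listed for root hairs and guard cells passed too, so the count does not identify the tissue. Of the genes listed for the cambium, CLE41 had 757.3 in sample 1 and 699.3 in sample 2. CLE44 had 77.9 and 69.7, and MOL1 had 267.8 and 259.6. CLE41 and CLE44 encode peptides that act as signals on the cambium, so they need not mark cambium cells. The summed signals of the 2 mesophyll markers RCA and LHCB4.1 were 895.8 and 946.2. The secondary wall gene GUT2 had 159.6 and 185.8, the phloem gene OPS 34.6 and 43.5, and the guard cell gene FMA 17.2 and 17.8. The root hair genes were little above the limits, EXPA7 with 14.9 and 13.6 and EXPA18 with 15.2 and 15.0, and the anther locus AT5G07230 had 2.2 and 1.2, below them. No epidermis or endodermis marker was measured. The hypocotyl holds several cell types, and in such bulk samples fewer cells of a type and less RNA per cell cannot be told apart. Whether cell makeup had a part in the signals of the IAA and GH3 genes was not tested.

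Both arrays were scaled to the same trimmed mean, so their closeness in overall signal and a median log2 ratio near 0 are largely set by the scaling. After scaling, the median over plant probe sets was 42.0 in sample 1 and 42.8 in sample 2. Over all 15919 plant probe sets above the limits the median log2 ratio was 0.00 and its SD 0.26. Per the labels, the average background before scaling was 79.94 for sample 1 and 95.57 for sample 2, and the average noise 4.81 and 6.28. The labels count 586 outlier cells for sample 1 and 974 for sample 2.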

How the data were processed

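Per the labels, total RNA was extracted with a Qiagen kit, made into biotin-labelled cRNA and hybridised to ATH1 arrays in 1 colour. The deposited intensity values are linear probe set signals for 22810 probe sets, and from the values the authors' scaling set each array to a mean of 100 after 2% was trimmed at each end. The summarising software is not given in the sources. The trimmed means of both arrays were set equal, which left them nearly as deposited, and the log2 ratio was taken with nothing added. The number of arrays limits the precision, and signals of different probe sets are not set against each other, other than against the controls.

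Gene names came from GEO's annotation of the platform and were brought up to date from RefSeq's TAIR10.1 gene table, by gene ID, where 13436 of 13513 probe sets with 1 gene matched. A further 503 have several genes and 8730 are unnamed here. Coordinates are left out, as the values come with no named build. Every member and every measured gene of both lists is named. The members and lists were chosen with earlier results of these data known.

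The scaling and ratio steps were tested on simulated arrays, with changes planted in probe sets with signals above 50. The detection calls against the controls were not tested in this way. Python 3.11.15 was used, with scipy 1.17.1 for trimmed means, statsmodels 0.14.6 for loess, numpy 2.4.6 and pandas 2.3.3 for the rest and matplotlib 3.10.9 for plots. The alternatives were other limits, other scalings, adding 16 before log2, other folds, plain probe set names, symbols from the platform annotation, and either sample alone.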

Additional observations from a re-analysis of the deposited data

How the results depend on the processing

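The count of detected members depended on how the limit was set. With the TrpnX controls alone as the limit, 2.5 and 3.3, 8 members passed on both arrays, among them 6 IAA genes and 2 GH3 genes, against 85.2% of all plant probe sets, and 1 member, IAA29, was then higher in sample 1 by 2-fold or more. The median log2 ratio of the IAA genes was then -0.42. With the second highest Bacillus control, 10.0 and 11.0, a limit chosen after seeing the data, 2 IAA genes passed, as IAA30 joined IAA18, and the median log2 ratio of the IAA genes was 0.18 instead of -0.21, which is the ratio of IAA18 alone. Counting RefSeq synonyms as symbols, also added after seeing the data, brings in WES1 and makes 3 GH3 genes above the limits, with a median log2 ratio of 0.12 instead of 0.34. At a signal of 50 on both arrays, 1 GH3 gene passed, GH3.9, with a log2 ratio of 0.56. From either sample alone, 3 to 4 members, 1 to 2 IAA genes and 2 to 2 GH3 genes passed. At 2 times the highest control IAA18, GH3.9 and GH3.17 passed, as in the main setting. Among all plant probe sets, those differing by 2-fold or more, higher in sample 2 and in sample 1, numbered 51 and 23 at the main limit, 453 and 176 with the TrpnX controls, 31 and 12 at 2 times the limit, 20 and 7 where both signals passed 50, and 21 and 5 with 16 added. A fold of 1.5 gave 348 and 255, and a fold of 3 gave 8 and 2. Each of the 33 recomputed member levels moved by no more than 1 SD, which holds by construction for either sample alone. Without rescaling, and with median, quantile or loess scaling, the log2 ratio of IAA18 stayed below 0. The median of GH3.9 and GH3.17 stayed above 0 in these settings. Leaving out the rescaling changed almost nothing, as both arrays came with a trimmed mean of 100.007. With 1 IAA gene and 2 GH3 genes above the limits, these signs are no result about the families. No paired analysis was possible because the labels give a single group.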
